A study of Homo sapiens with 6 samples.

Results

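The genes described here are the G1 cyclins CCND1, CCND2, CCND3, CCNE1 and CCNE2, the cyclin-dependent kinase (CDK) inhibitors CDKN1A, CDKN1B, CDKN2A and CDKN2B, and the retinoblastoma gene RB1. They were picked by gene name, with earlier results of these data known. All 10 were found among the 48183 names of the count table, each with 1 Ensembl identifier. Bulk RNA-seq of 6 libraries of human pluripotent stem cells was analysed, 4 from cells in the naive state and 2 from cells in the primed state. The EOS line carries a GFP reporter driven by the distal enhancer of OCT4, and the CA-p38 EOS line carries in addition a doxycycline-inducible, constitutively active form of the kinase p38. AICAR naive 1, AICAR naive 2 and VPA naive were derived from the EOS line, with AICAR, an activator of the energy sensor AMPK, or with VPA, a histone deacetylase inhibitor. CA-p38 naive was derived from the CA-p38 EOS line by switching on the active p38. EOS primed and CA-p38 EOS primed are the parental lines, not converted to the naive state. When the CA-p38 EOS line was made, the study induced it with doxycycline and sorted the cells that responded. The labels name H1 as the embryonic stem cell line behind all 6 libraries, whereas the text of the study names H9.

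According to the labels, all naive cells were kept, after conversion, in a shared medium, PXGL, that holds the MEK inhibitor PD0325901, the Wnt pathway inhibitor XAV939, the protein kinase C inhibitor Gö6983 and the cytokine LIF. The VPA cells were converted in a medium without XAV939 and Gö6983 before that. The labels also give mouse feeder cells and a sort for the naive surface proteins CD75 and SUSD2 for the naive cells. The study, however, describes later feeder-free culture of CA-p38 cells and of AICAR-induced cells. It does not say which culture the libraries came from. The naive cells had been passaged after conversion. The study reports karyotype abnormalities in naive cells kept long without feeders in PXGL, and gives no karyotype for these libraries. The primed cells grew in StemFit AK02N without feeders and were not sorted for these libraries. State, medium, feeder cells, sorting and passage after conversion therefore cannot be told apart in these libraries. The naive group pools 3 ways of induction, and nothing in the labels says whether the 2 AICAR libraries came from separate inductions, so the p-values measure the spread between these libraries only.

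Progression from G1 into S phase is set by cyclins, which activate CDKs, and by inhibitor proteins that bind the kinases. D cyclins activate CDK4 and CDK6, E cyclins activate CDK2, and both kinds of complex phosphorylate RB1, which otherwise holds back the E2F transcription factors. The INK4 inhibitors, encoded by CDKN2A and CDKN2B, bind CDK4 and CDK6, while the CIP/KIP inhibitors p21 (CDKN1A) and p27 (CDKN1B) bind complexes of cyclins with CDKs. Pluripotent stem cells are known for a short G1 phase.

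Promoter sequences are shown first for members that were higher in naive cells, because 2 of them, CDKN2A and CDKN2B, are neighbours on chromosome 9 that encode related inhibitors, and CCNE1 and CDKN1B are set beside them as members of the other families. The RefSeq promoter table (GRCh38.p14) held 10 entries for 7 of the members, and CCND1, CCND2 and CCNE2 had none. In the 250 bases upstream of each start, both strands were searched for E2F sites (TTTGGCGC, TTTCGCGC, TTTCCCGC or TTTGCCGC), the cyclic AMP response element TGACGTCA, the E-box CACGTG and the GC box GGGCGG. No entry of a member held an E2F, cyclic AMP response or E-box match, and among all 35116 promoters of the table these were found in 2.79%, 1.65% and 6.34%. At such low shares, finding none in 10 entries does not set the members apart. A GC box was found in 7 of the 10 entries and in 42.6% of all promoters. Capitals mark the GC box on either strand, and none overlapped another motif searched. The CCNE1 window (chr19:29811741-29811990, plus strand) held 7 matches and the CDKN2B window (chr9:22009306-22009555, minus strand) held 2. The CDKN1B window (chr12:12717118-12717367, plus strand) held 1, and it lies 31870 bases inside the annotated gene, at a later start. The entry of RB1 also lies inside its gene, 172706 bases from the first start, and held no match. The CDKN2A window (chr9:21995325-21995574, minus strand) held none, and it lies before the outer of the 2 listed starts of that gene. The window of its inner start (chr9:21974858-21975107) held 1 match and is not printed because it overlaps an annotated untranslated region. The gene encodes 2 proteins, the inhibitor p16INK4a and p14ARF, and which start serves which was not given. The printed window therefore cannot be taken for that of the inhibitor. A match describes the letters of the window and not a bound site.
CCNE1: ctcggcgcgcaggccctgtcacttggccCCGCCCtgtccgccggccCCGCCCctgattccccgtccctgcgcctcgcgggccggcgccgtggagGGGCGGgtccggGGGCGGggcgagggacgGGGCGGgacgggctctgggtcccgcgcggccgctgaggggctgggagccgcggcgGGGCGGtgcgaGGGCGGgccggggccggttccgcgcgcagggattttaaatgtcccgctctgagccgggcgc
CDKN1B: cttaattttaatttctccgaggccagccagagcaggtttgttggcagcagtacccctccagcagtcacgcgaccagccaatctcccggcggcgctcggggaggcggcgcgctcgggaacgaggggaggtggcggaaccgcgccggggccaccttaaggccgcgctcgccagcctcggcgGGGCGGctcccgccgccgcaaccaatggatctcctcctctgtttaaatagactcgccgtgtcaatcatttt
CDKN2A: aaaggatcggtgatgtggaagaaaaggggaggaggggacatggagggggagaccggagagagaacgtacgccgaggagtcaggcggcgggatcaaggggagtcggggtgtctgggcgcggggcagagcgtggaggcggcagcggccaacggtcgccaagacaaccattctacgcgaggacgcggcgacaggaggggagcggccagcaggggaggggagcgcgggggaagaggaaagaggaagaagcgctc
CDKN2B: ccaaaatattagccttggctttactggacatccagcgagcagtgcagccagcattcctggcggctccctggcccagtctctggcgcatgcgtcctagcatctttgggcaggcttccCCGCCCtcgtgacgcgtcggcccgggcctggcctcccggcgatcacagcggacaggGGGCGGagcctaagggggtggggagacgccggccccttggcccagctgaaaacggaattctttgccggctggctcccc

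Library totals ran from 46823699 to 54277064 counts, and levels are given as CPM, the counts relative to the TMM-scaled size of the library. The state labels held against their markers. The summed level of 6 naive markers was 1854 to 2155 CPM in naive and 7.67 to 9.88 CPM in primed libraries, and that of 6 primed markers was at most 54.04 and at least 2392 CPM. SUSD2, at 428 to 669 CPM in naive libraries, is in the naive list but was also a target of the sort. Its part in the sum is thus no separate check. Marker lists of other cell types moved too, each through a few genes. Of 6 fibroblast markers 3 were lower in naive cells and the sum was 30.8 to 72.8 CPM in naive and 175 to 192 CPM in primed libraries, mostly through COL1A1 and COL1A2, while COL3A1 was at 3.57 to 16.6 CPM in naive libraries and at 4.75 and 2.19 CPM in primed ones, and LUM and POSTN were at 0 in at least 1 library. Of 6 neural markers 3 were lower and 1 was higher. The neural sum was 243 to 289 and 554 to 653 CPM and followed NES (87.4 to 92.6 against 427 and 507 CPM), whereas TUBB3 was higher in naive libraries (153 to 195 against 113 and 131 CPM) and MAP2 was at 0 in a library. Of 6 trophoblast markers 3 were higher, with sums of 28.5 to 34.7 and 4.79 to 6.34 CPM and CGA and VGLL1 under 1 CPM in every library. Of 6 endoderm and hypoblast markers 1 was higher and 3 were lower, with sums of 17.9 to 19.1 and 10.1 to 38.4 CPM. GATA4 was at 7.53 to 13.5 CPM in naive libraries, at 0 in EOS primed and at 0.941 CPM in CA-p38 EOS primed. FOXA2 went the other way, at 0.416 to 1.19 CPM in naive libraries and at 5.36 and 21.4 CPM in primed ones. The part of any cells of these types in the results was not tested.

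The first comparison asks how the G1 genes differ between naive and primed cells. All 10 members passed the test of naive against primed libraries (edgeR's quasi-likelihood test, Benjamini-Hochberg adjusted p under 0.05 over 26497 names), against 53.1% of all names tested. CCND3, CCNE1 and the 4 inhibitors were higher in naive cells, so 6 members were higher, against 26% of all names. CCND1, CCND2, CCNE2 and RB1 were lower, so 4 members were lower, against 27% of all names. Naive and primed libraries did not overlap in CPM for any of the 10, which was also true of 64.9% of all names tested, so separation alone was common in this table. The median size of the log2 fold change was 2.35 over the members and 0.85 over all names, and the median signed log2 fold change (naive minus primed) was 1.37 and 0.11. Because the members were chosen with earlier results known, these contrasts with all names are descriptive and test nothing about the set. In bulk RNA, fewer cells that express a gene and less of its RNA in each cell cannot be told apart.

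**Figure D1:**
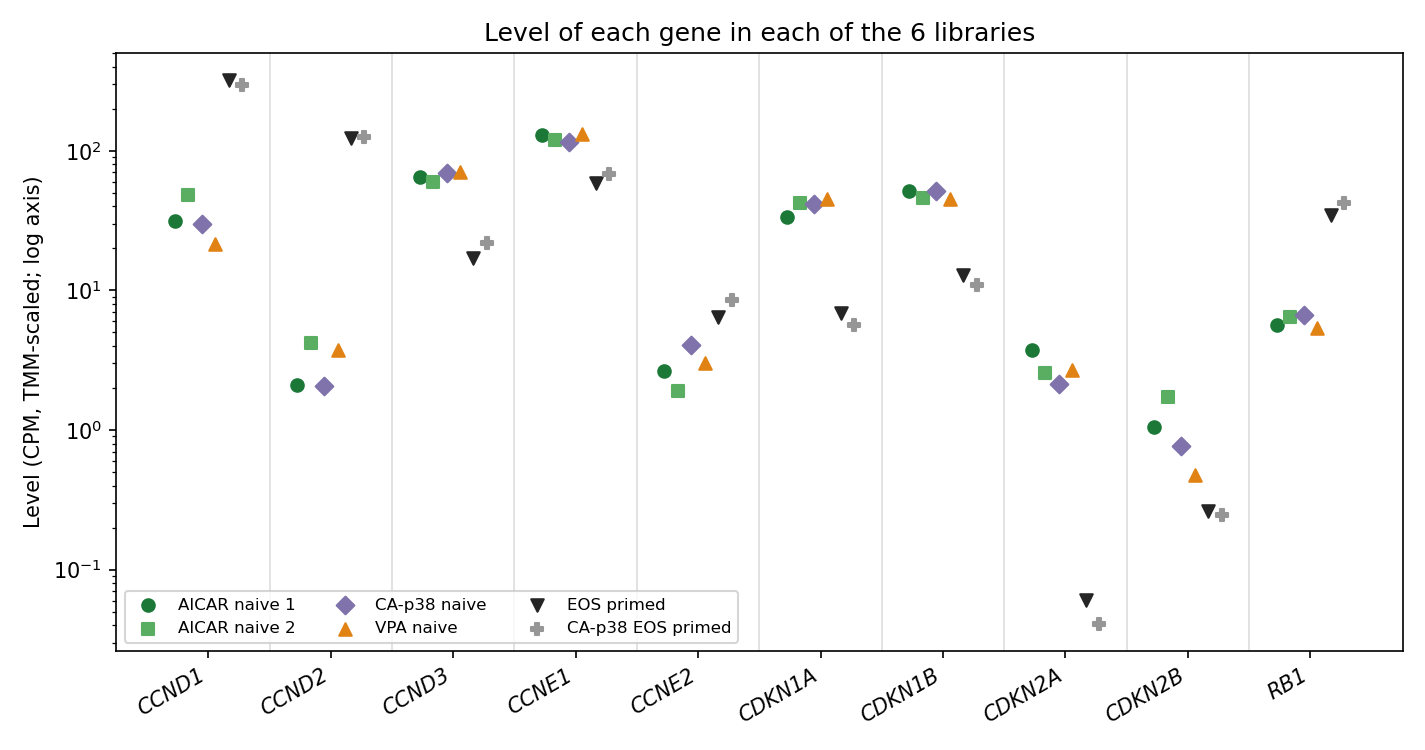
Level of each of the 10 genes in each of the 6 libraries, in TMM-scaled CPM on a log axis, 1 symbol per library. For every gene the 4 naive and the 2 primed libraries occupied separate ranges, with the widest gaps for CCND2 and CDKN2A.

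Among the D cyclins, CCND1 and CCND2 were lower and CCND3 was higher in naive cells. CCND1 (chr11:69641156-69654474, plus strand), the D cyclin best known as a target of mitogen signalling, stood at 31.6 CPM in AICAR naive 1, 48.1 in AICAR naive 2, 29.7 in CA-p38 naive and 21.4 in VPA naive. It stood at 321 CPM in EOS primed and 297 in CA-p38 EOS primed. The group means were 32.7 ± 11.2 CPM (SD, n = 4) and 309 ± 16.7 CPM (SD, n = 2), a log2 fold change of -3.24 ± 0.22 (SE, edgeR adjusted p = 6.51e-08). Even the highest naive library, AICAR naive 2, was 6.18-fold below the lower primed one.

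CCND2 (chr12:4269771-4305353, plus strand) showed the largest difference of the cyclins. It was at 2.10 CPM in AICAR naive 1, 4.21 in AICAR naive 2, 2.08 in CA-p38 naive and 3.76 in VPA naive, and at 124 and 127 CPM in EOS primed and CA-p38 EOS primed. The primed mean (SD 1.89 CPM, n = 2) was 41.3-fold above the naive mean of 3.04 ± 1.11 CPM (SD, n = 4), with a log2 fold change of -5.37 ± 0.24 (SE, edgeR adjusted p = 1.41e-09). The 2 primed libraries were nearly level, while the naive ones formed a lower pair, AICAR naive 1 and CA-p38 naive, and a higher pair, AICAR naive 2 and VPA naive.

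CCND3 (chr6:41934934-42050357, minus strand) went the other way. Its level was 64.4 CPM in AICAR naive 1, 59.8 in AICAR naive 2, 69.8 in CA-p38 naive and 70.9 in VPA naive, and 17.2 and 21.8 CPM in EOS primed and CA-p38 EOS primed. The log2 fold change was 1.76 ± 0.14 (SE, edgeR adjusted p = 3.67e-07). The naive libraries lay within 1.18-fold of each other, and the lowest was 2.74-fold above the higher primed one.

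The D cyclin counts of a library were divided differently in the 2 states. CCND3 held 53.4 to 73.8% of the D cyclin counts in naive libraries and 3.72 to 4.90% in primed libraries. CCND1 held 22.2 to 42.9% and 66.7 to 69.4%, and CCND2 held 2.05 to 3.92% and 26.8 to 28.4%. Divided by the length of the canonical transcript, CCND3 made up 80.0 ± 6.40% of the D cyclin transcripts in naive (SD, n = 4) and 9.47 ± 1.79% in primed cells (SD, n = 2), and CCND1 made up 18.8 ± 6.26% and 71.6 ± 2.45%. The summed D cyclin level was 4.45-fold lower in naive cells as counts (102 ± 7.15 against 454 ± 11.5 CPM) and 2.49-fold lower per length (40.9 ± 0.99 against 102 ± 2.03 CPM per kb). These shares and sums are given as values without a test. With 4 libraries against 2, an exact two-sided permutation test cannot give a p below 0.0667.

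**Figure D2:**
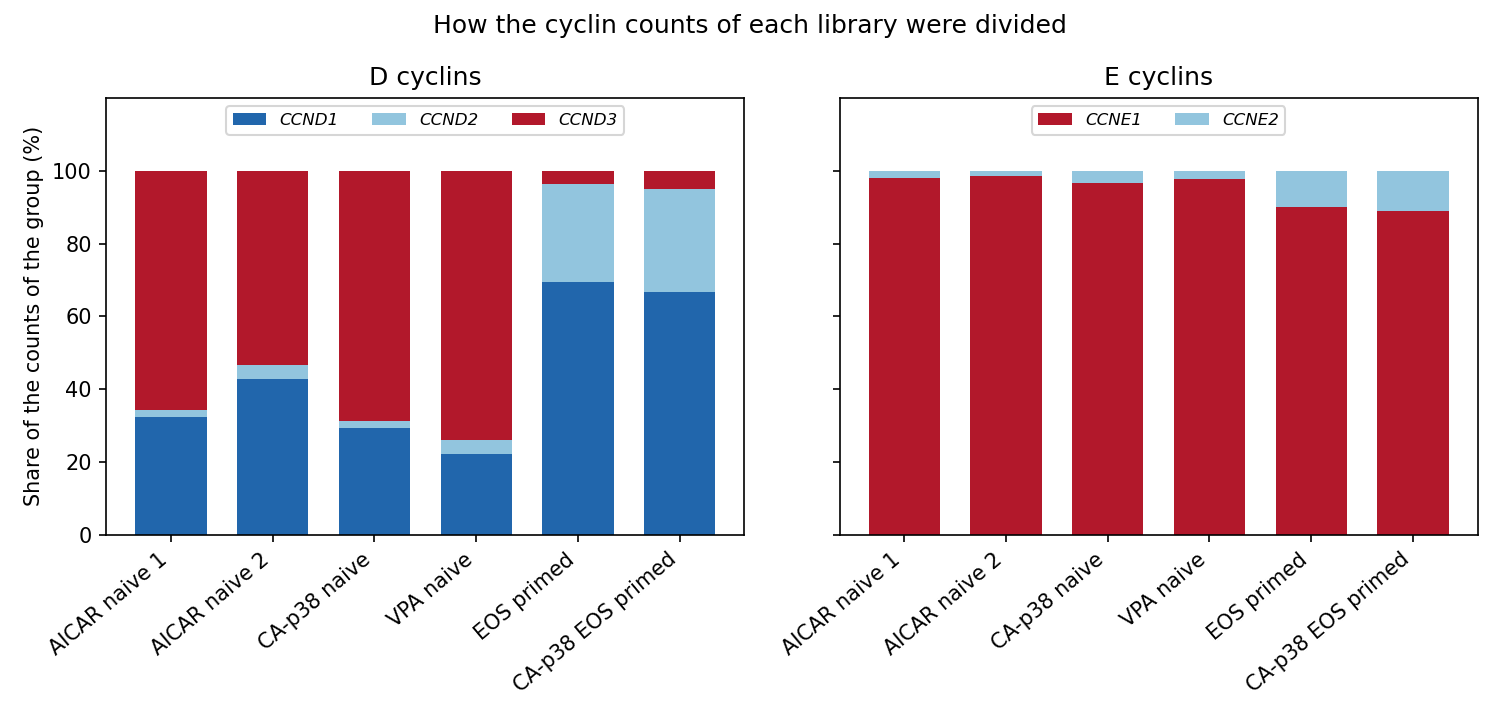
Share (%) of the summed D cyclin counts (left) and E cyclin counts (right) held by each gene, 1 stacked bar per library. CCND3 fills at least 53.4% of the D cyclin bar in the 4 naive libraries and at most 4.90% in the 2 primed ones, and CCNE1 fills most of the E cyclin bar in all 6.

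The E cyclins also moved apart. CCNE1 (chr19:29811991-29824312, plus strand) was at 130.4 CPM in AICAR naive 1, 120.4 in AICAR naive 2, 116 in CA-p38 naive and 131 in VPA naive, and at 58.6 and 67.9 CPM in EOS primed and CA-p38 EOS primed. Its means, 124 ± 7.55 CPM (SD, n = 4) and 63.3 ± 6.53 CPM (SD, n = 2), gave a log2 fold change of 0.98 ± 0.11 (SE, edgeR adjusted p = 1.01e-05), the smallest of the members. The naive libraries nevertheless lay within 1.13-fold of each other, and the lowest was 1.71-fold above the higher primed one.

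CCNE2 was lower in naive cells, at 2.65 CPM in AICAR naive 1, 1.91 in AICAR naive 2, 4.08 in CA-p38 naive and 3.04 in VPA naive, against 6.49 and 8.51 CPM in EOS primed and CA-p38 EOS primed. The log2 fold change was -1.36 ± 0.29 (SE, edgeR adjusted p = 0.00157). CCNE1 held 97.7 ± 0.79% of the E cyclin counts in naive (SD, n = 4) and 89.5 ± 0.83% in primed libraries (SD, n = 2), so CCNE1 was the main E cyclin in both. The summed E cyclin level was 127 ± 7.31 CPM in naive and 70.8 ± 7.96 CPM in primed cells, a 1.80-fold difference in the direction opposite to the D cyclins. CCNE2 shares 1629 exon bases with INTS8 on the other strand, which stood at 61.5 to 84.4 CPM, and whether the counting used strand is not stated, so the CCNE2 counts may hold reads of INTS8.

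Both CIP/KIP members were higher in naive cells, without overlap between the groups. CDKN1A (chr6:36676460-36687337, plus strand), which encodes p21, was at 33.8 CPM in AICAR naive 1, 42.1 in AICAR naive 2, 41.8 in CA-p38 naive and 45.4 in VPA naive, against 6.85 and 5.68 CPM in EOS primed and CA-p38 EOS primed. The naive mean, 40.8 ± 4.96 CPM (SD, n = 4), was 6.51-fold above the primed mean, 6.27 ± 0.82 CPM (SD, n = 2), with a log2 fold change of 2.70 ± 0.17 (SE, edgeR adjusted p = 4.25e-08). CDKN1A shares 146 exon bases with the antisense gene DINOL, which was at or below 0.181 CPM in every library.

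CDKN1B (chr12:12685498-12722369, plus strand), which encodes p27, was at 51.5 CPM in AICAR naive 1, 46.3 in AICAR naive 2, 51.3 in CA-p38 naive and 45.0 in VPA naive, against 12.9 and 11.0 CPM in EOS primed and CA-p38 EOS primed. The log2 fold change was 2.02 ± 0.14 (SE, edgeR adjusted p = 9.96e-08), and the naive libraries lay within 1.14-fold of each other. Together the pair stood at 89.3 ± 3.31 CPM in naive (SD, n = 4) and 18.2 ± 2.16 CPM in primed cells (SD, n = 2), which is 4.90-fold higher.

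The INK4 members were higher in naive cells and had the lowest levels per length of the members in primed cells. CDKN2A (chr9:21967752-21995301, minus strand) had 204 counts in AICAR naive 1, 128 in AICAR naive 2, 107 in CA-p38 naive and 140 in VPA naive, but 3 in EOS primed and 2 in CA-p38 EOS primed. This corresponds to 2.12 to 3.75 CPM in naive cells and to 0.0606 and 0.0409 CPM in the primed lines, where 3 counts are worth 0.0574 to 0.0591 CPM. The pooled counts, 579 against 5, gave a ratio of 55.1 after scaling for library size (exact 95% interval 23.5 to 170, counting error only). The fitted log2 fold change was 5.71 ± 0.53 (SE, edgeR adjusted p = 1.22e-06), a value that depends on the prior count because the primed counts are so low. These counts pool the transcripts of p16INK4a with those of p14ARF, a protein read from another frame of the same gene. They may also hold reads of CDKN2B-AS1, an antisense gene that shares 593 exon bases and stood at 1.91 to 4.37 CPM in naive libraries and at most 0.920 CPM in primed ones.

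CDKN2B (chr9:22002903-22009305, minus strand), which encodes p15INK4b, had 57 counts in AICAR naive 1, 86 in AICAR naive 2, 39 in CA-p38 naive and 25 in VPA naive, against 13 and 12 in EOS primed and CA-p38 EOS primed. In CPM these were 1.05, 1.73, 0.772 and 0.478 against 0.263 and 0.245. The log2 fold change was 1.98 ± 0.60 (SE, edgeR adjusted p = 0.0137), the widest error of the members. CDKN2B alone lost its call in some settings: the adjusted p was 0.0543 with limma-voom, 0.0672 without EOS primed and 0.0761 without CA-p38 EOS primed, at log2 fold changes of 1.79, 2.01 and 1.94.

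RB1 (chr13:48303744-48599436, plus strand), whose protein the cyclin-CDK complexes inactivate, was lower in naive cells. It was at 5.63 CPM in AICAR naive 1, 6.48 in AICAR naive 2, 6.67 in CA-p38 naive and 5.39 in VPA naive, against 34.6 and 42.6 CPM in EOS primed and CA-p38 EOS primed. The primed mean, 38.6 ± 5.68 CPM (SD, n = 2), was 6.39-fold above the naive mean, 6.04 ± 0.63 CPM (SD, n = 4), and the log2 fold change was -2.68 ± 0.16 (SE, edgeR adjusted p = 1.82e-08). The other pocket proteins, RBL1 and RBL2, which share with RB1 the binding of E2F factors, did not pass the test. RBL1 was at 24.2 ± 4.05 CPM in naive (SD, n = 4) and 26.2 ± 4.87 CPM in primed cells (SD, n = 2), and RBL2 at 22.6 ± 2.42 and 24.9 ± 4.45 CPM.

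**Figure D3:**
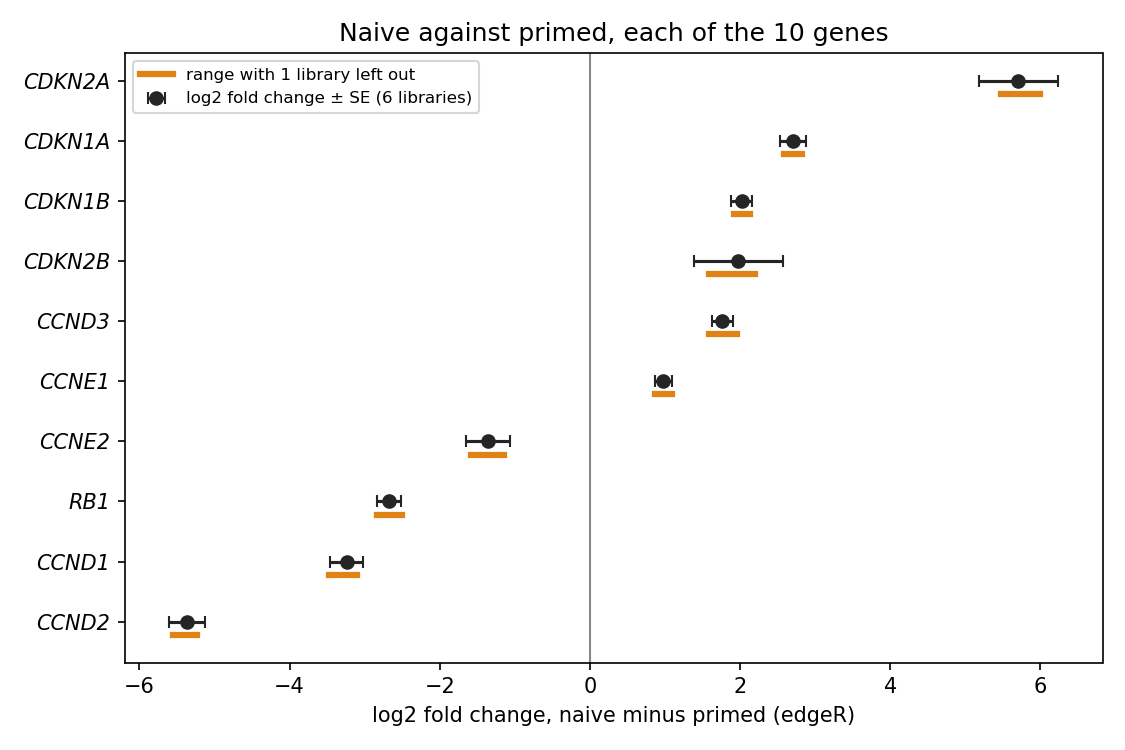
Log2 fold change of naive minus primed cells for each gene. Points and bars give the edgeR estimate ± SE over the 6 libraries, and the orange bar below each gives the range when 1 library is left out. CDKN2A (5.71) and CCND2 (-5.37) lie at the ends, and no orange bar reaches 0, although CDKN2B was no longer past the threshold without either primed library.

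Levels of different genes were compared as CPM per kb of the canonical transcript, with the reserve that reads placed equally well on several transcripts may have been dropped. In naive cells CCNE1 led at 63.7 CPM per kb, followed by CCND3 at 32.7, CDKN1B at 20.1, CDKN1A at 19.3, CCND1 at 7.72, CDKN2A at 2.84, RB1 at 1.27, CCNE2 at 1.09, CCND2 at 0.468 and CDKN2B at 0.261. The ranges over the naive libraries overlapped between CDKN1B and CDKN1A, between RB1 and CCNE2, and between CCND2 and CDKN2B, so their order is not resolved. In primed cells CCND1 led at 72.9 CPM per kb, followed by CCNE1 at 32.4, CCND2 at 19.3, CCND3 at 9.62, RB1 at 8.10, CDKN1B at 4.96, CDKN1A at 2.96, CCNE2 at 2.80, CDKN2B at 0.0659 and CDKN2A at 0.0519. Here CCND3 overlapped RB1 and CDKN1A overlapped CCNE2, and CDKN2A lay at the limit that 3 counts set. The D cyclin with the highest level was thus CCND3 in naive and CCND1 in primed cells.

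The second question is whether the way of induction mattered. With 2 libraries of AICAR and 1 each of VPA and CA-p38, the methods were not tested against each other, and values are given over the primed library of the same parental line with exact 95% counting intervals. All 40 pairs of a member and a naive library moved in the direction of the fit, which the separation of the groups had already fixed. AICAR naive 1, AICAR naive 2 and VPA naive also share EOS primed as denominator. The counting interval excluded 1 in 39 of the pairs. The exception was CDKN2B in VPA naive, at 1.82-fold (0.896 to 3.87). These intervals leave out the spread between libraries, which exceeded counting error within each state (28.7 to 53.7 chi-square units per name). They are therefore too narrow to serve as a test of the folds. CCND1 was 15.0-fold lower in VPA naive (14.1 to 16.0), 10.1-fold lower in AICAR naive 1 (9.64 to 10.7), within 9.48- to 10.6-fold lower in CA-p38 naive and 6.67-fold lower in AICAR naive 2 (6.39 to 6.97). CCND2 was 59.1-fold lower in AICAR naive 1 (49.1 to 71.7) and 60.9-fold lower in CA-p38 naive (50.2 to 74.6), but 32.9-fold lower in VPA naive (28.6 to 38.1) and 29.5-fold lower in AICAR naive 2 (25.7 to 34.0). The 2 AICAR libraries thus differed as much as libraries of different methods did for CCND2.

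CCND3 was 3.20-fold (CA-p38 naive) to 4.13-fold (VPA naive) higher, CCNE1 1.71-fold (CA-p38 naive) to 2.24-fold (VPA naive) higher, and CDKN1B 3.49-fold (VPA naive) to 4.66-fold (CA-p38 naive) higher than in the own parent. CDKN1A was 4.93-fold higher in AICAR naive 1 (4.39 to 5.55) and 7.35-fold higher in CA-p38 naive (6.49 to 8.36). RB1 was the most even, 5.34-fold lower in AICAR naive 2 and 6.42-fold lower in VPA naive. Within the naive group the highest library exceeded the lowest by 3.63-fold for CDKN2B, 2.25-fold for CCND1, 2.13-fold for CCNE2 and 2.02-fold for CCND2, and by 1.77-fold or less for the rest. Between the 2 primed lines no member differed by more than 1.48-fold, the value for CDKN2A at 3 against 2 counts.

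**Figure D4:**
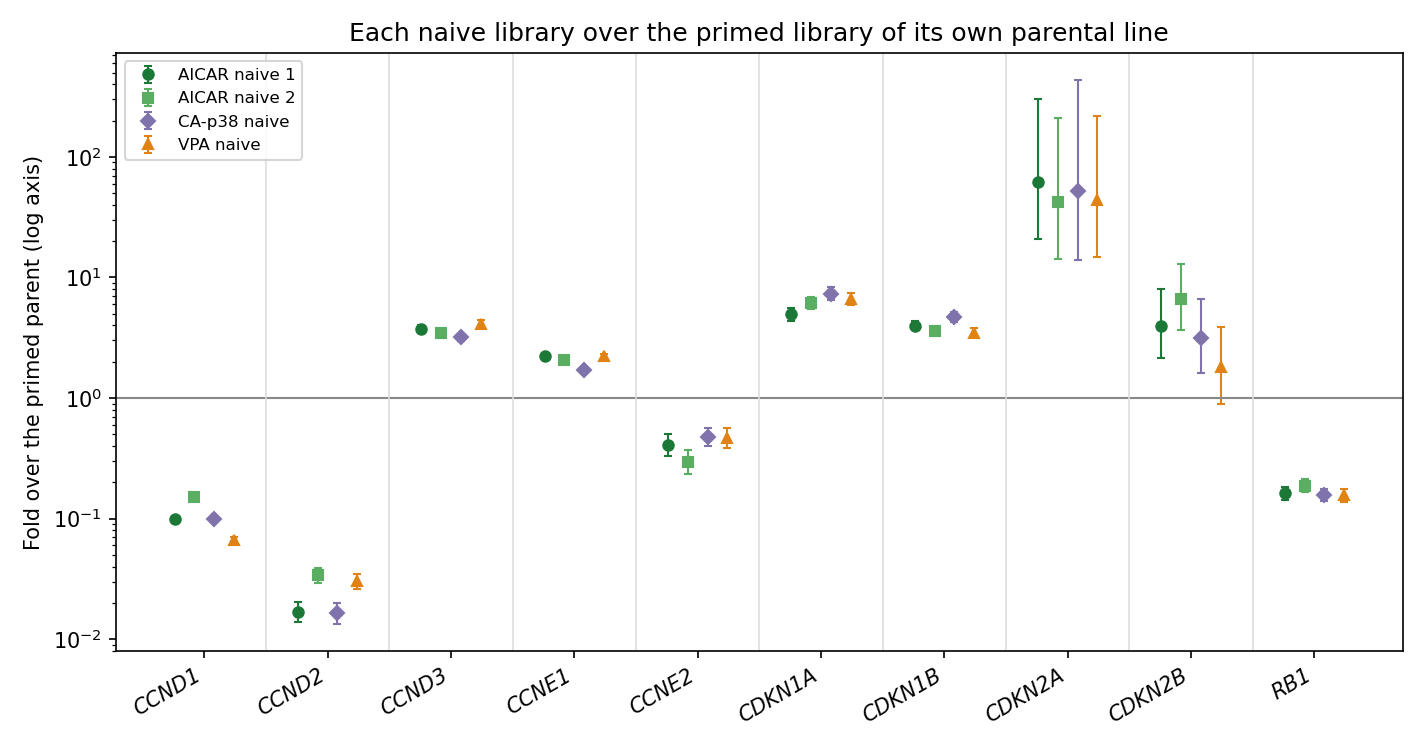
Level of each gene in each naive library divided by that in the primed library of its own parental line, on a log axis, with exact 95% intervals of the counts (counting error only). The 4 libraries lie on the same side of 1 for every gene, and the interval of CDKN2B in VPA naive (0.896 to 3.87) is the one that includes 1.

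The genes around the members were read from lists by role, which were also chosen with earlier results of these data known. Of 74 other genes of the G1 to S control and of stress responses, 24 were higher and 35 lower in naive cells and 15 did not pass the test (edgeR, adjusted p under 0.05 over all names), with a median log2 fold change of -0.23 against 0.11 over all names. The higher genes were 32.4% of the 74, near the 26% of all names, and the lower ones 47.3%, against 27% of all names, and the counts of each list are to be read beside these background shares. Among the 4 kinases that the G1 cyclins and their relatives drive, CDK6, CDK2 and CDK4 were lower and CDK3 was higher. CDK6, a partner of the D cyclins, was at 8.23 to 10.6 CPM in naive libraries and at 40.3 and 50.9 CPM in primed ones, with a log2 fold change of -2.23 ± 0.15 (SE, edgeR adjusted p = 7.96e-08). CDK4, the other partner, differed less, with a log2 fold change of -0.61 ± 0.10 (SE, edgeR adjusted p = 0.000211), and the E cyclin partner CDK2 was at -0.88 ± 0.14 (SE, edgeR adjusted p = 0.000215). CDK3, whose kinase acts around the exit from quiescence, was at 7.36 ± 1.12 CPM in naive (SD, n = 4) and 2.57 ± 0.0505 CPM in primed cells (SD, n = 2) (log2 fold change 1.52 ± 0.25, SE).

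Of the 3 CDK inhibitors outside the members, 2 were higher in naive cells. CDKN2D, the INK4 gene for p19, was at 6.81 to 7.84 CPM in naive libraries and at 1.05 and 1.12 CPM in primed ones, with a log2 fold change of 2.78 ± 0.26 (SE, edgeR adjusted p = 1.21e-06). CDKN1C, the imprinted CIP/KIP gene for p57, was at 27.8 to 45.3 CPM and at 11.3 and 8.89 CPM, with a log2 fold change of 1.79 ± 0.21 (SE, edgeR adjusted p = 9.60e-06). CDKN2C, the INK4 gene for p18, was at 0.401 ± 0.324 CPM (SD, n = 4) and 0.102 ± 0.0279 CPM (SD, n = 2) and did not pass the test (edgeR adjusted p = 0.148).

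Of 10 E2F factors and their DP partners, 6 were lower and 3 higher. E2F5 fell most among them, from 45.6 and 55.9 CPM in primed to 12.4 to 16.3 CPM in naive libraries (log2 fold change -1.79 ± 0.15, SE). E2F3 was also lower (-1.35 ± 0.13, SE). E2F2 was highest, with a log2 fold change of 0.61 ± 0.17 (SE), beside 0.40 ± 0.13 for E2F1 and 0.43 ± 0.13 for E2F4. Of 13 replication genes known as E2F targets, 11 were lower and 1 was higher. POLA1, the catalytic subunit of DNA polymerase alpha, was at 39.4 to 49.3 CPM in naive libraries against 137 and 145 CPM in primed ones, at a log2 fold change of -1.69 ± 0.11 (SE), and the exception was CDT1, a licensing factor for replication origins (0.58 ± 0.13, SE). All 4 proliferation markers were lower, TOP2A most (-1.51 ± 0.15, SE) and AURKA least (-0.56 ± 0.14, SE). Whether the share of cells in each phase of the cycle differed was not measured by these libraries, and its part in the levels of the members was not tested.

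The list of stress response and apoptosis genes held 13 genes, of which 10 were higher in naive cells and 3 did not pass the test, at a median log2 fold change of 1.44. BBC3, which encodes the apoptosis inducer PUMA, was at 39.0 to 47.8 CPM in naive libraries and at 7.01 and 6.40 CPM in primed ones, the highest of the list (log2 fold change 2.67 ± 0.16, SE). SESN2, a stress-response gene, and MDM2, a ubiquitin ligase gene, had log2 fold changes of 2.57 ± 0.15 (SE) and 2.05 ± 0.12 (SE).

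The remaining lists were mixed. Of 4 MYC factors, 2 were higher and 1 was lower. MYC was lower (8.86 ± 4.74 CPM, n = 4, against 63.0 ± 12.1 CPM, n = 2, both SD) and MYCL was highest (log2 fold change 1.24 ± 0.17, SE). Of 5 S and M phase genes, 3 were lower, CDK1 most (-0.91 ± 0.17, SE), and CCNA1, an A cyclin best known from the germ line, was higher, at 11.6 to 37.8 CPM in naive libraries and at 0.263 and 0.245 CPM in primed ones (6.42 ± 0.62, SE). Of 5 CDC25 phosphatases and WEE1 kinases, which remove or add the inhibitory phosphate of CDKs, 2 were higher, with CDC25B at 1.41 ± 0.12 (SE), and 2 lower, with WEE1 at 52.98 ± 10.1 CPM in naive (SD, n = 4) against 106 ± 6.74 CPM in primed cells (SD, n = 2). Of 8 genes for the turnover of cyclins and inhibitors, 4 were lower and 1 was higher. SKP2, part of the ligase that marks p27 for degradation, was at -1.18 ± 0.11 (SE), and AMBRA1, part of the ligase that degrades D cyclins, was at 0.72 ± 0.14 (SE). Of the 3 parts of the CDK-activating kinase, CDK7 was at 0.40 ± 0.15 (SE) and CCNH at -0.46 ± 0.15 (SE), calls that were lost with DESeq2's scaling factors and with library totals, respectively.

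**Figure D5:**
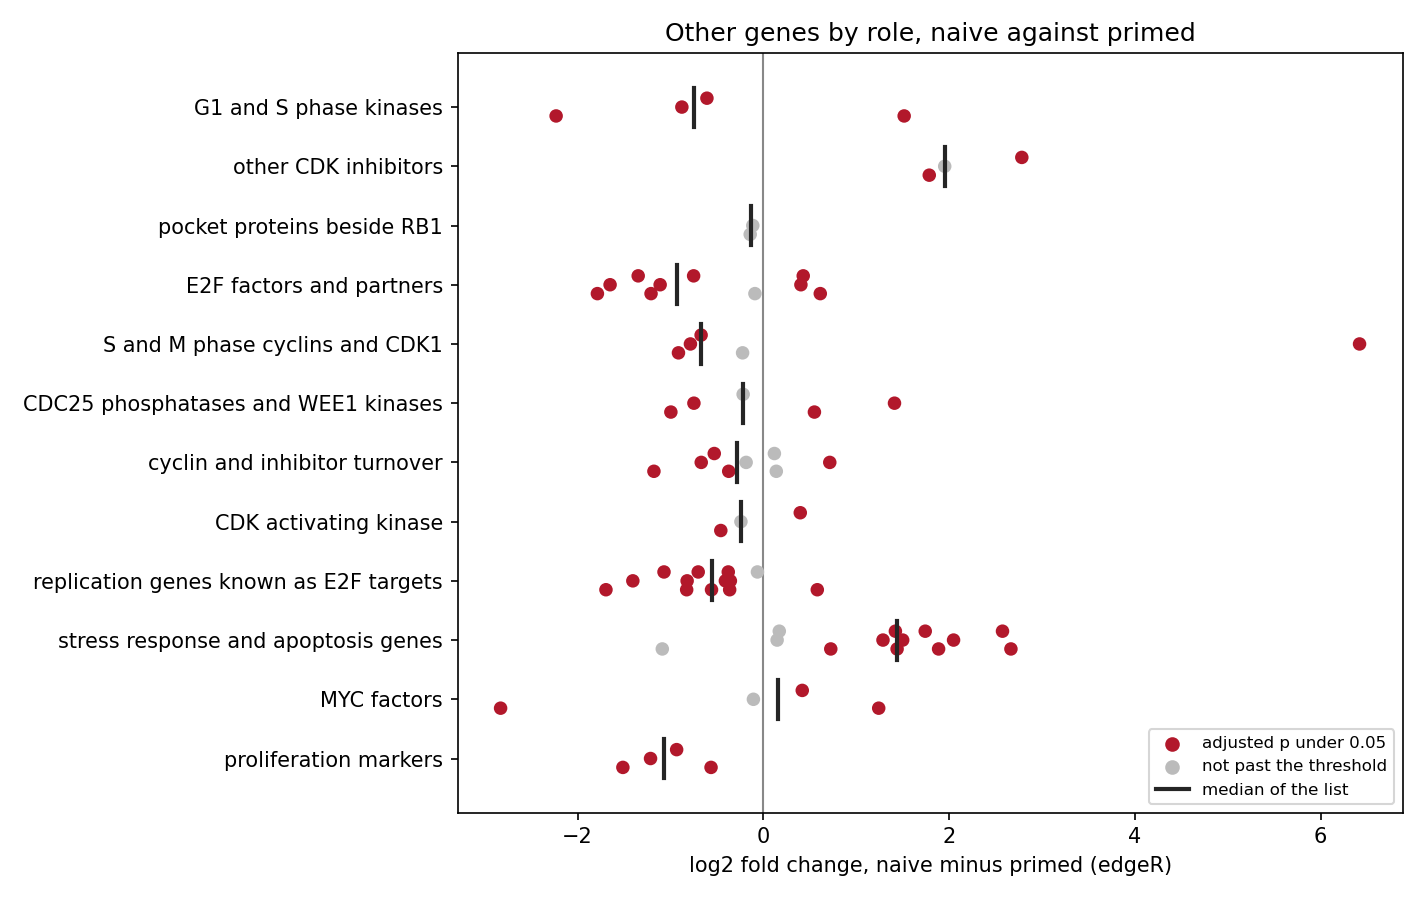
Log2 fold change (naive minus primed, edgeR) of the 74 genes of the other lists, 1 point per gene, red where the adjusted p was under 0.05 and grey where it was not, with a black bar at the median of each list. The lists of stress response genes (median 1.44) and other inhibitors lie mostly to the right, those of replication genes and proliferation markers mostly to the left, and CCNA1 (6.42) stands alone at the far right.

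Of the neighbours and antisense genes of the members, 6 were in the table, 1 of them higher and 2 lower in naive cells. MTAP, a gene of methionine salvage beside CDKN2A, was lower, at 28.5 ± 3.63 CPM in naive (SD, n = 4) and 84.8 ± 14.1 CPM in primed cells (SD, n = 2), while CDKN2A, CDKN2B and CDKN2B-AS1 next to it were higher (CDKN2B-AS1 log2 fold change 1.68 ± 0.40, SE). FGF19, a growth factor gene beside CCND1, was at 0.490 ± 0.274 CPM and 16.3 ± 4.28 CPM, and so was lower in naive cells like CCND1 (log2 fold change -5.05 ± 0.36, SE). LTO1, which overlaps CCND1 by 497 exon bases on the other strand, was at 15.0 to 22.7 CPM over the 6 libraries and did not pass the test. CCND2-AS1, which overlaps CCND2 by 162 exon bases, was at or below 1.02 CPM in every library. RB1-DT, transcribed away from RB1, was at 0.234 ± 0.067 and 0.194 ± 0.131 CPM.

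The genes whose pattern lay nearest to the extreme members were found among 12604 names with a mean of at least 5 CPM, by Euclidean distance of centred log2 CPM over the 6 libraries, which share their 2 groups. Nearest to CCND2 were PAM, which encodes a peptide-amidating enzyme (distance 0.206), EPB41L3, a membrane skeleton gene (0.446), and ITM2A, a membrane protein gene (0.542). PAM was at 2.33 ± 0.85 CPM in naive (SD, n = 4) and 88.0 ± 6.22 CPM in primed cells (SD, n = 2). Nearest to CDKN2A were WNT9A (0.475), A4GALT (0.489) and AC010641 (0.489), and none of these remained with a prior count of 2 in place of 0.5, against 2 of the 3 for CCND2.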

How the data were processed

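Bulk polyadenylated RNA was sequenced from 6 SMART-Seq Stranded libraries. The authors deposited raw counts, 1 whole number for each library and Ensembl identifier. Per the study's methods and the labels, the authors trimmed adapters with cutadapt 1.15 in Trim Galore 0.4.4, mapped reads with Bowtie2 to Ensembl GRCh38 cDNA and noncoding RNA, and counted alignments of mapping quality 1 or more. Reads that fit several genes or transcripts equally well may thus be lost, and strand use in counting is not given in the sources used here. The 26 spike-in features held at most 1 count in a library and were left out, and 23 columns of other samples were not used.

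Counts were summed by gene name and tested with edgeR 4.0.16 in R 4.3.3 (TMM, filterByExpr by state, glmQLFit and glmQLFTest, 4 naive against 2 primed libraries, no covariate, Benjamini-Hochberg over 26497 names, threshold 0.05). TMM factors ran from 0.936 to 1.06. Intervals of folds are exact (Clopper-Pearson) and cover counting error only. Pairs of libraries of a state differed by 28.7 to 53.7 chi-square units per name, more than counting error alone gives. None was thus a duplicate, and the intervals of folds leave out most of the spread between libraries. Positions and canonical transcripts came from GENCODE 44 and promoters from RefSeq, both GRCh38. Fits were tested on simulated data. Named genes were all 10 members, the extremes of each list that passed the test, the members' neighbours, and the 3 nearest names of the extreme members. Up to 2 more were named from the kinase, inhibitor, pocket protein and stress response lists, and 3 more from the E2F list. Members and lists were chosen with earlier results of these data known. Some genes of the lists are not reported here. CDKN1A-AS1 was not found by name. Alternatives changed the scaling, test, filter or handling of identifiers, blocked by parental line, merged the AICAR libraries, or dropped 1 library.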

Additional observations from a re-analysis of the deposited data

How the results depend on the processing

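No member changed direction in any alternative. The call of CDKN2B was lost with limma-voom (log2 fold change 1.79, adjusted p = 0.0543), without EOS primed (2.01, adjusted p = 0.0672) and without CA-p38 EOS primed (1.94, adjusted p = 0.0761), so that 9 members passed there, and its log2 fold change ran from 1.59 to 2.19 when 1 library was left out. The cause was not tested. A filter of 10 counts in each library removed CDKN2A, which also left 9. In the settings that kept both primed libraries, 11925 to 14332 names passed over the whole table, and 57 to 59 of the 74 list genes. With each identifier on its own, 15585 identifiers passed. With library totals the median of all names was 0.20 in place of 0.11, and with DESeq2's factors 0.06. The labels number only the 2 AICAR libraries and pair no naive library with a primed one by number, so the pairing that could be used was the parental line: with it as a block all 10 members passed (CDKN2B adjusted p = 0.0270). The primed counts were 13 and 12 for CDKN2B, whose naive libraries also spread over 3.63-fold, and 3 and 2 for CDKN2A.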
